A study of Homo sapiens and Mus musculus with 17 samples.

Results

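The 10 genes described here carry brown adipose tissue (BAT) through the uptake, storage and release of fatty acids: Lpl, Lmf1, Gpihbp1, Cd36, Fabp4, Pnpla2, Lipe, Mgll, Plin1 and Cidec. They were chosen by name from what their proteins do, not by a measured change, though with earlier results of these data known. They are 10 of the 55491 genes in the BAT table. All 10 passed the filter on low values, which left 12473 genes to test. The values were FPKM (fragments scaled to transcript length and to the library's mapped fragments), so levels could be compared between genes of a library, while levels between libraries also depended on how the libraries were scaled.

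BAT had been taken from 12-week-old mice on the C57BL/6J background and measured by poly(A) RNA sequencing. There were 3 libraries labelled wild type (WT), 2 labelled Hrd1 KO and 3 labelled Sel1L KO, each labelled as a mouse of its own. The knockout mice were described as Hrd1 flox/flox or Sel1l flox/flox animals carrying Ucp1-Cre, and the agent that all 5 of them shared was that Cre. The Ucp1 promoter is active in brown adipocytes, so the endothelial, immune and stromal cells of the tissue were not targeted, and the WT mice were not stated to carry a floxed allele or Cre.

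SEL1L and HRD1 form a complex of the endoplasmic reticulum (ER) membrane that hands misfolded ER proteins to the proteasome. Lipoprotein lipase (LPL) is a secreted enzyme that folds in the ER with the help of LMF1 and SEL1L, is carried to the capillary wall by GPIHBP1 and there frees fatty acids from circulating triacylglycerol. The fatty acids enter adipocytes through CD36 and are bound by FABP4. Inside the cell ATGL (Pnpla2), HSL (Lipe) and monoacylglycerol lipase (Mgll) take the fatty acids off stored triacylglycerol one after another, on droplets coated by perilipin 1 (Plin1) and fused by CIDEC, and this supply fuels heat production.

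The transcripts of the targeted genes did not follow the labels in every library, so groups are called here by their labels only. Sel1l stood at 9.10, 12.9 and 10.3 FPKM in the WT libraries, at 25.2, 8.17 and 8.38 FPKM in the libraries labelled Sel1L KO and at 57.6 and 65.2 FPKM in those labelled Hrd1 KO. Syvn1, which encodes HRD1, stood at 5.20 to 5.65 FPKM in WT, at 14.1 and 13.8 FPKM in the libraries labelled Hrd1 KO and at 9.96 to 118 FPKM in those labelled Sel1L KO. Neither targeted gene was thus lower in every library that bears its name, and whether the FPKM includes reads outside the deleted exons was not tested. All 10 brown adipocyte markers reached 1 FPKM, with Ucp1 at 1138 to 3453 FPKM over the 8 libraries. Replicate 1 labelled Sel1L KO stood apart: its log2 values correlated with those of its own group at r = 0.888 and 0.874 across genes, against 0.953 between the other 2, and its Ppargc1a level was 387 FPKM against 4.13 to 14.4 FPKM elsewhere. Replicate 1 labelled Hrd1 KO had a summed level of 11 skeletal muscle markers of 416 FPKM, against 4.65 to 9.76 FPKM in WT and 18.9 FPKM in the other Hrd1 KO library. In Sel1L KO that sum was 91.0 FPKM in replicate 1, 23.4 in replicate 2 and 14.2 in replicate 3, so every knockout library lay above every WT library. Where leaving out one of these 2 libraries moved the log2 change of a member from WT, as deposited, by over 1.5 times, the value without it is given. Relative depth, read from the steps of sparsely covered genes, ranged 1.75-fold over the libraries, from 0.730 to 1.28.

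FPKM shares were also taken up unequally by mitochondrially encoded transcripts, which held 34.4% and 41.3% of summed FPKM in the libraries labelled Hrd1 KO, 41.7% to 45.0% in those labelled Sel1L KO and 44.3% to 45.5% in WT. The FPKM summed outside these transcripts was not higher in Hrd1 KO. Relative to the geometric mean of the libraries it was 0.934 to 0.998 in Hrd1 KO, 0.989 to 1.004 in Sel1L KO and 1.02 to 1.04 in WT. As deposited, the median tested gene was 0.42 log2 higher in the libraries labelled Hrd1 KO than in WT and 0.09 log2 higher in those labelled Sel1L KO. After division by median-ratio size factors, which set the typical gene of each library level, those medians were -0.022 and -0.0022. Each member is therefore given on both scales, as deposited and median-ratio scaled.

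None of the 10 genes passed the test in any comparison. With limma and Benjamini-Hochberg adjustment over the 12473 genes, 0 of 10 had an adjusted p under 0.01 for Hrd1 KO against WT as deposited, where 0.369% of tested genes did, and 0 of 10 for Sel1L KO against WT, where 0.104% did. After median-ratio scaling the counts were again 0 of 10 for both, with backgrounds of 0.0401% and 0.00802%. For Hrd1 KO against Sel1L KO the count was 0 of 10 on either scale, against 0.0401% of tested genes on each. An adjusted p under 0.05 was reached by 0 of 10 in each of these 6 fits as well, with backgrounds as deposited of 4.67% (Hrd1 KO against WT), 0.882% (Sel1L KO against WT) and 0.0561% (Hrd1 KO against Sel1L KO), and of 1.01%, 0.361% and 0.0722% after scaling. At an unadjusted p under 0.05, as deposited, 2 of 10 were higher in Hrd1 KO than in WT (Lipe and Plin1; background 25.4% higher) and 2 of 10 lower in Sel1L KO (Lpl and Mgll; background 5.08% lower). After scaling, 3 of 10 were lower in Hrd1 KO (Lpl, Cd36 and Fabp4; background 10.8%) and 1 of 10 was lower in Sel1L KO (Mgll; background 7.95%). Between the knockout labels, Mgll and Plin1 were higher in Hrd1 KO at that level as deposited (background 15.5%), and Gpihbp1 and Cd36 lower after scaling (background 5.9%). The change needed for a call at 0.01 was taken from the standard error (SE) of each member and the p cutoff set by the genes called. As deposited it was about 1.22 to 2.18 log2 in Hrd1 KO and 1.29 to 2.31 log2 in Sel1L KO. After scaling it was about 1.498 to 3.24 and 1.65 to 3.56 log2.

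**Figure D1:**
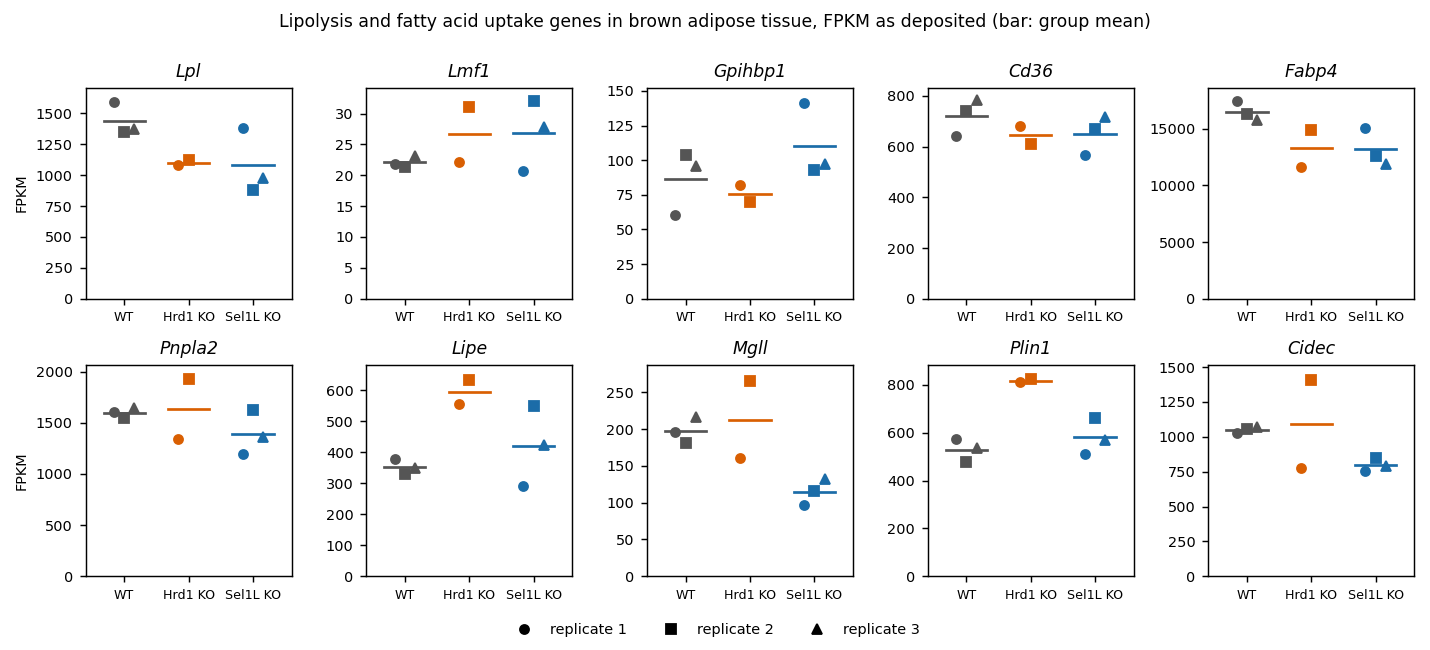
FPKM as deposited (linear axes from 0) of the 10 genes in each BAT library, with 3 WT, 2 Hrd1 KO and 3 Sel1L KO libraries as points, the replicate number as the symbol and the group mean as a bar. Mgll lies at 96.9 to 133 FPKM in Sel1L KO and at 181 to 216 FPKM in WT, Plin1 lies at 810 and 824 FPKM in Hrd1 KO and at 480 to 575 FPKM in WT, and the 2 Hrd1 KO libraries lie on opposite sides of WT for Pnpla2, Mgll and Cidec.

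In WT BAT the 10 genes spanned a wide range of levels. Fabp4 was the 13th most abundant of the tested genes by mean FPKM, followed among the members by Pnpla2 (60th), Lpl (72nd), Cidec (102nd), Cd36 (143rd), Plin1 (182nd), Lipe (261st), Mgll (414th), Gpihbp1 (857th) and Lmf1 (2735th). Pnpla2 at 1597 ± 49.5 FPKM (SD, n = 3) and Lpl at 1441 ± 133 FPKM were neighbours whose WT libraries overlapped only in that 1 Lpl library, at 1593 FPKM, lay within the Pnpla2 range. The WT libraries of every other pair of neighbours in this order did not overlap. Together the 10 genes held 2.94% to 3.21% of the FPKM outside mitochondrially encoded genes in WT, 2.55% and 3.03% in Hrd1 KO, and between 2.35% and 2.82% in Sel1L KO. Fabp4 made up most of it, and without it the other 9 held 0.773% to 0.831% in WT, 0.819% and 0.958% in Hrd1 KO, and between 0.697% and 0.764% in Sel1L KO.

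Of the 5 genes of uptake, Lpl and Fabp4 lay below every WT library in Hrd1 KO as deposited, and Fabp4 did so in Sel1L KO, though neither passed the test. Lpl (ENSMUSG00000015568, GRCm38 chr8:68880491-68907448, plus strand) encodes the lipase itself. It measured 1593, 1352 and 1377 FPKM in WT, 1083 and 1119 FPKM in Hrd1 KO, and 1384, 881 and 974 FPKM in Sel1L KO. Both Hrd1 KO libraries lay below every WT library, while replicate 1 of Sel1L KO lay inside the WT range and the other 2 below it. The log2 change of Lpl in Hrd1 KO was -0.38 (SE 0.20, 95% CI -0.84 to 0.07, limma adjusted p = 0.246) as deposited and -0.84 (SE 0.27, CI -1.45 to -0.22, adjusted p = 0.160) after scaling. When replicate 1 of Sel1L KO was left out, the scaled change was again -0.84, at a limma adjusted p of 0.0279. That replicate is in neither group compared here but enters the spread and the size factors. In Sel1L KO the change was -0.44 (SE 0.18, CI -0.85 to -0.03, adjusted p = 0.253) as deposited and -0.54 (adjusted p = 0.314) after scaling. Without replicate 1 of Sel1L KO it was -0.63 (adjusted p = 0.0383) and -0.81 (adjusted p = 0.0580). Lpl stood at percentile 6.85 of the changes of all tested genes in Hrd1 KO and at percentile 12.4 in Sel1L KO as deposited.

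Fabp4 (ENSMUSG00000062515, chr3:10204088-10208576, minus strand) encodes the fatty acid binding protein of the adipocyte cytosol. Its level was 17463, 16298 and 15755 FPKM in WT, 11646 and 14892 FPKM in Hrd1 KO, and 15079, 12622 and 11924 FPKM in Sel1L KO. It was the only member whose 5 knockout libraries all lay below every WT library as deposited, a pattern shown by 2.82% of the tested genes. In 0 of 10 members did all 5 lie above WT, as they did in 15% of the tested genes. The difference from WT was -0.32 log2 (SE 0.17, adjusted p = 0.256 in limma) in Hrd1 KO and -0.33 log2 (SE 0.15, adjusted p = 0.320) in Sel1L KO. In Hrd1 KO it was -0.15 without replicate 1 and -0.50 without replicate 2. After scaling it was -0.78 log2 (SE 0.23, adjusted p = 0.142) in Hrd1 KO and -0.43 log2 (adjusted p = 0.358) in Sel1L KO, and replicate 1 of Sel1L KO then lay at 17237 scaled FPKM, inside the WT range of 16667 to 20107.

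Cd36 (ENSMUSG00000002944, chr5:17781690-17888801, minus strand) encodes the long-chain fatty acid receptor of the cell surface, found on capillary endothelium as well as on adipocytes. As deposited its libraries overlapped, with 640, 741 and 783 FPKM in WT, 680 and 609 FPKM in Hrd1 KO, and 568, 669 and 717 FPKM in Sel1L KO. The deposited change was -0.16 log2 in Hrd1 KO, -0.24 without its replicate 1, and -0.15 log2 in Sel1L KO, -0.054 without its replicate 1. After scaling the libraries did not overlap with WT: 737, 819 and 828 scaled FPKM in WT stood above 517 and 522 in Hrd1 KO and 649, 640 and 719 in Sel1L KO. Cd36 and Pnpla2 were the 2 members below WT in all 5 knockout libraries on that scale, where 9.01% of tested genes were. The scaled difference of Cd36 in Hrd1 KO, -0.61 log2 (SE 0.14, CI -0.93 to -0.29), had the smallest scaled p of the members, adjusted p = 0.0821 in limma, and 0.0344 without replicate 1 of Sel1L KO. In Sel1L KO the scaled difference was -0.25 log2 (adjusted p = 0.366).

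Lmf1 and Gpihbp1, the maturation factor and the capillary carrier of LPL, overlapped with WT under both knockout labels as deposited. Lmf1 (ENSMUSG00000002279, chr17:25579085-25662826, plus strand) encodes an ER membrane protein needed for LPL to become active. It stood at 21.8, 21.3 and 23.1 FPKM in WT, at 22.2 and 31.1 FPKM in Hrd1 KO, and at 20.76, 32.02 and 27.88 FPKM in Sel1L KO. The groups overlapped on both scales, with changes of 0.25 log2 in Hrd1 KO (SE 0.23, CI -0.27 to 0.77) and 0.26 log2 in Sel1L KO (CI -0.21 to 0.73) as deposited, which were 0.49 without replicate 1 of Hrd1 KO and 0.44 without replicate 1 of Sel1L KO. After scaling the Lmf1 change in Hrd1 KO turned to -0.20 log2, and in Sel1L KO it was 0.16 log2. Gpihbp1 (ENSMUSG00000022579, chr15:75596628-75599481, plus strand) is made by endothelial cells, which Ucp1-Cre does not target. It stood at 60.4, 104 and 96.0 FPKM in WT, at 81.8 and 69.5 FPKM in Hrd1 KO, and at 141, 93.2 and 97.3 FPKM in Sel1L KO. The changes as deposited were -0.16 log2 (CI -0.79 to 0.46) in Hrd1 KO and 0.36 log2 (CI -0.20 to 0.92) in Sel1L KO. Without replicate 1 of each label they were -0.28 and 0.17, and after scaling the Sel1L KO change of 0.27 was -0.0023 without its replicate 1. Both Hrd1 KO libraries lay below every Sel1L KO library, with a difference of -0.53 log2 as deposited and -0.88 log2 (limma adjusted p = 0.420) after scaling. After scaling they also lay below every WT library, at 62.2 and 59.6 against 69.5 to 114 scaled FPKM. The scaled change from WT was -0.61 log2 (CI -1.30 to 0.07). The summed level of 9 endothelial markers was 142 to 185 FPKM in WT, 223 and 307 FPKM in Hrd1 KO and 255 to 281 FPKM in Sel1L KO, and after scaling 164 to 205, 192 to 234 and 245 to 321 scaled FPKM. Per 100 FPKM of that sum Gpihbp1 stood at 42.5, 55.9 and 53.1 in WT, at 26.6 and 31.1 in Hrd1 KO and at 50.2, 36.4 and 38.1 in Sel1L KO. In replicate 1 of Sel1L KO 1 marker, Cldn5, made up 152 of the 281 FPKM, against 7.19 to 32.2 FPKM in the other libraries. Of the remaining markers there, Kdr, Tek, Tie1 and Emcn stood below every WT library, at 14.0, 3.68, 7.89 and 4.94 FPKM. Pecam1 and Vwf stood above every WT library, at 23.1 and 3.87 FPKM, and Cdh5 and Egfl7 inside the WT range. Without Cldn5, left out after its values had been seen, Gpihbp1 per 100 FPKM was 44.7, 60.1 and 57.0 in WT, 29.4 and 34.1 in Hrd1 KO, and 109, 41.6 and 43.4 in Sel1L KO, so that replicate 1 of Sel1L KO lay above every WT library and the other 2 below. In whole tissue, fewer cells of a type and less RNA per cell cannot be told apart, and the part of the endothelial share in the Gpihbp1 values was not tested.

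**Figure D2:**
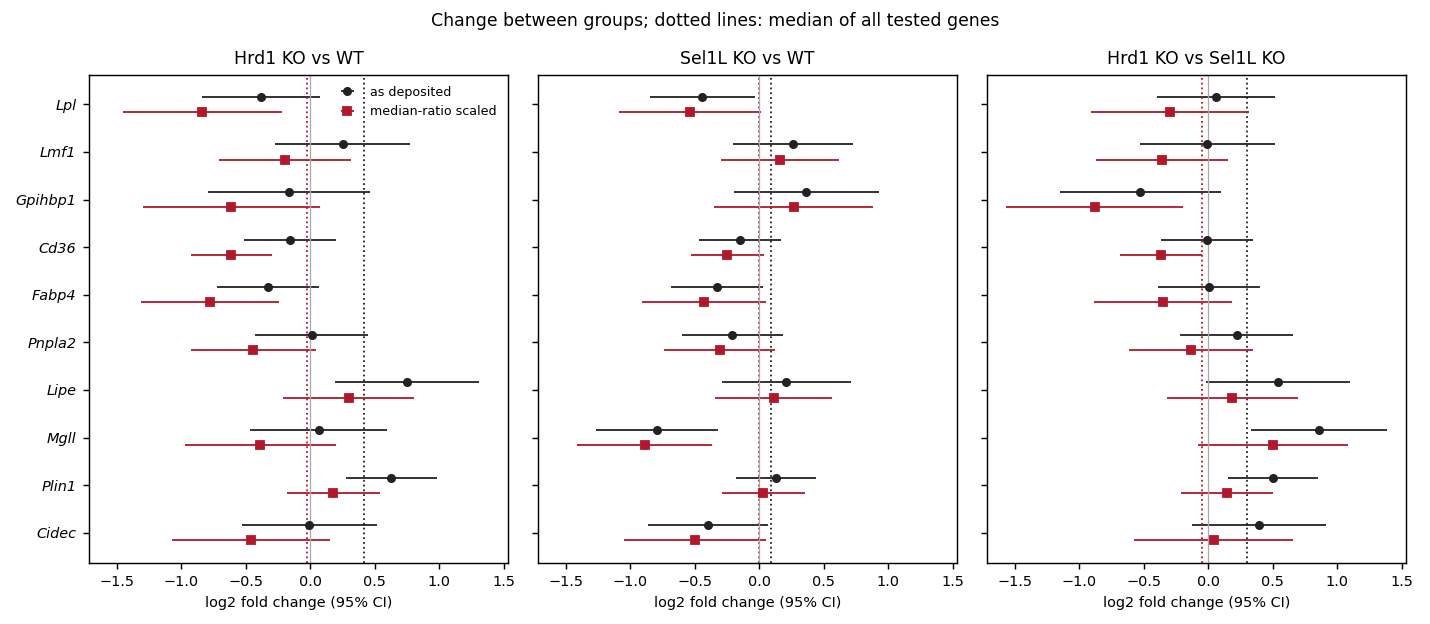
Log2 fold changes of the 10 genes with 95% confidence intervals in the 3 comparisons, as deposited (black circles) and after median-ratio scaling (red squares), with dotted lines at the median of all tested genes. For Hrd1 KO against WT the scaled points lie to the left of the deposited ones, as the median gene moves from 0.42 to -0.02, while for Sel1L KO against WT both scales nearly coincide and Mgll lies lowest, at -0.79 and -0.89.

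Of the lipases, Mgll had the largest change in Sel1L KO, which did not pass the test. Mgll (ENSMUSG00000033174, chr6:88724412-88828360, plus strand) encodes the enzyme of the last step, which splits monoacylglycerol into glycerol and a fatty acid. It stood at 197, 181 and 216 FPKM in WT and at 96.9, 115 and 133 FPKM in Sel1L KO. All 3 Sel1L KO libraries lay below every WT library, on both scales. The change was -0.79 log2 (SE 0.21, CI -1.26 to -0.32, limma adjusted p = 0.113) as deposited and -0.89 log2 (SE 0.23, CI -1.41 to -0.37, adjusted p = 0.134) after scaling. This was the member furthest from the other genes in either comparison with WT, at percentile 4.59 of all tested genes in Sel1L KO as deposited. Without replicate 1 of Sel1L KO the change was -0.67 log2 (adjusted p = 0.107) as deposited and -0.85 log2 (adjusted p = 0.124) after scaling. The 2 Hrd1 KO libraries lay on opposite sides of WT, at 161 and 265 FPKM, with a mean difference of 0.07 log2 (CI -0.46 to 0.59) as deposited, which was 0.42 without replicate 1 and -0.29 without replicate 2, and of -0.39 log2 after scaling. As deposited both stood above every Sel1L KO library, by 0.86 log2 (SE 0.23, CI 0.33 to 1.38, limma adjusted p = 0.188), and after scaling, at 122 and 227 scaled FPKM, they overlapped with Sel1L KO at 111 to 133.

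Lipe (ENSMUSG00000003123, chr7:25379527-25398710, minus strand) encodes hormone-sensitive lipase, which acts mainly on diacylglycerol and is switched on by protein kinase A. Its levels were 380, 331 and 348 FPKM in WT, 554 and 632 FPKM in Hrd1 KO, and 290, 548 and 423 FPKM in Sel1L KO. Both Hrd1 KO libraries stood above every WT library, by 0.75 log2 (SE 0.24, CI 0.19 to 1.31, limma adjusted p = 0.102), and in Sel1L KO 2 libraries stood above and replicate 1 below the WT range. The difference in Hrd1 KO exceeded that of the median gene by 0.33 log2. Without replicate 1 of Sel1L KO in the fit it kept its size with an adjusted p of 0.0123, and after scaling it was 0.30 log2 (CI -0.21 to 0.81, adjusted p = 0.536) with overlapping libraries. In Sel1L KO it was 0.21 log2 (CI -0.29 to 0.71) as deposited, 0.45 log2 (adjusted p = 0.120) without replicate 1 and -0.01 log2 without replicate 2. With all 3 libraries after scaling it was 0.11 log2 (CI -0.35 to 0.57). Pnpla2 (ENSMUSG00000025509, chr7:141455198-141460743, plus strand) encodes ATGL, which takes the first fatty acid off triacylglycerol. It showed 1605, 1544 and 1642 FPKM in WT, 1341 and 1929 FPKM in Hrd1 KO, and 1198, 1622 and 1358 FPKM in Sel1L KO. The groups overlapped as deposited, at 0.01 log2 (CI -0.43 to 0.45) in Hrd1 KO, where it was 0.27 without replicate 1 and -0.25 without replicate 2, and -0.21 log2 (CI -0.60 to 0.19) in Sel1L KO, -0.11 without replicate 1. After scaling, the 5 knockout libraries, at 1020 to 1655 scaled FPKM, all stood below the WT libraries at 1707 to 1848, with differences of -0.44 log2 in Hrd1 KO (limma adjusted p = 0.315) and -0.31 log2 in Sel1L KO (adjusted p = 0.455). Antisense transcripts overlap exons of Lipe (4732471J01Rik) and of Mgll (Gm26588), and whether counting used strand is not given in the sources used here, but these were listed at no more than 2.28 and 2.36 FPKM in any library.

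Of the droplet coat genes, Plin1 lay above every WT library in Hrd1 KO and Cidec below every WT library in Sel1L KO as deposited, and neither passed the test in any comparison. Plin1 (ENSMUSG00000030546, chr7:79720218-79732903, minus strand) encodes the coat protein that holds back lipolysis at rest and gives lipases access when phosphorylated. It measured 575, 480 and 535 FPKM in WT, 810 and 824 FPKM in Hrd1 KO, and 511, 663 and 571 FPKM in Sel1L KO. Both Hrd1 KO libraries lay above all of the other 6. The change from WT, 0.63 log2 (SE 0.15, CI 0.28 to 0.98), had the smallest adjusted p of any member, 0.0562 in limma, and 0.0140 without replicate 1 of Sel1L KO. It exceeded the change of the median gene by 0.21 log2, and after scaling it was 0.18 log2 (CI -0.18 to 0.54, adjusted p = 0.608) with overlapping libraries. In Sel1L KO it was 0.13 log2 (CI -0.18 to 0.44) as deposited, 0.22 without replicate 1, and 0.03 log2 after scaling. Between the knockout labels it was 0.50 log2 higher in Hrd1 KO (CI 0.15 to 0.85, limma adjusted p = 0.211) as deposited and 0.15 log2 (CI -0.21 to 0.50, adjusted p = 0.728) after scaling. Cidec (ENSMUSG00000030278, chr6:113424634-113435760, minus strand) encodes a protein that enlarges droplets by moving lipid from one to another. It was the member with the least spread in WT, at 1027, 1054 and 1070 FPKM (CV 2.06%), and the one with the most in Hrd1 KO, at 776 and 1409 FPKM (CV 41.0%). In Sel1L KO it stood at 754, 846 and 789 FPKM, below every WT library on both scales, with a difference of -0.40 log2 (SE 0.20, limma adjusted p = 0.355) as deposited and -0.50 log2 (adjusted p = 0.348) after scaling. The mean difference in Hrd1 KO, -0.01 log2 as deposited, depended on which library was kept. It was 0.42 without replicate 1, the one with the highest muscle marker sum, and -0.44 without replicate 2. After scaling, with both kept, the mean difference was -0.46 log2 (CI -1.07 to 0.16, limma adjusted p = 0.414). Between the knockout labels the Cidec difference was 0.39 log2 (CI -0.13 to 0.91, limma adjusted p = 0.395) as deposited and 0.04 log2 (CI -0.57 to 0.65, adjusted p = 0.961) after scaling, with overlapping libraries on both scales.

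**Figure D3:**
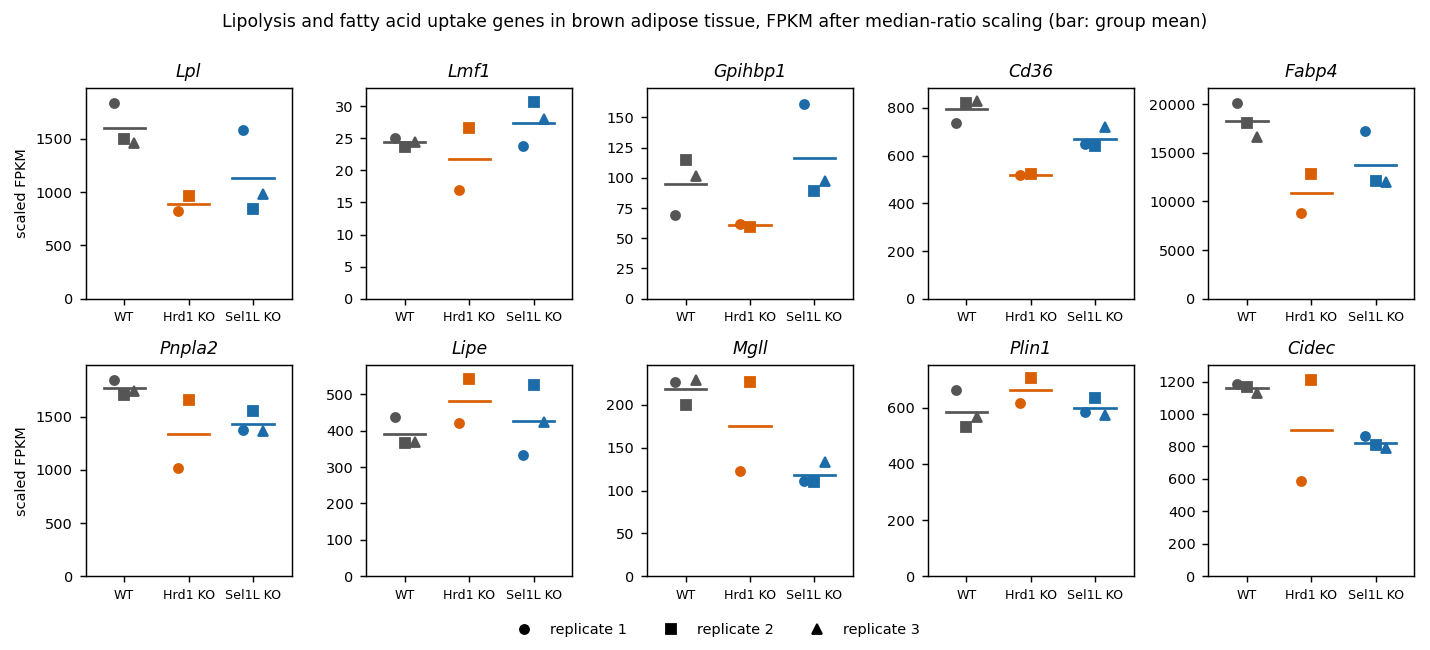
The same 10 genes after division by median-ratio size factors, in scaled FPKM on linear axes from 0, with points, symbols and bars as in the plot of deposited FPKM. Cd36 and Pnpla2 stand below WT in all 5 knockout libraries, and the Plin1 and Lipe libraries of Hrd1 KO and WT overlap.

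Counted over the members, 2 of 10 lay above (Lipe and Plin1) and 2 below (Lpl and Fabp4) every WT library in Hrd1 KO as deposited, where 51.1% of tested genes lay above and 5.79% below. In Sel1L KO 0 of 10 lay above and 3 below (Fabp4, Mgll and Cidec), against 17.7% and 8.43% of tested genes. After scaling, 5 of 10 lay below in Hrd1 KO (Lpl, Gpihbp1, Cd36, Fabp4 and Pnpla2; background 23.7%) and 4 of 10 in Sel1L KO (Cd36, Pnpla2, Mgll and Cidec; background 13.9%), and 0 of 10 lay above in either (backgrounds 21.1% and 12.8%). Between the knockout labels, 3 of 10 were higher in Hrd1 KO as deposited (Lipe, Mgll and Plin1; background 32.5%) and 1 lower (Gpihbp1; background 3.37%), and after scaling 0 of 10 were higher (background 12.6%) and 2 lower (Gpihbp1 and Cd36; background 15.3%). The median change of the members was 0.0019 log2 in Hrd1 KO and -0.18 log2 in Sel1L KO as deposited, against 0.42 and 0.09 for all tested genes, and -0.45 and -0.28 log2 after scaling. Relative to the median gene, 8 of the 10 thus stood lower in Hrd1 KO and 6 of the 10 in Sel1L KO as deposited. Both comparisons use the same 3 WT libraries. Marker sums of several cell types lay outside the WT range. The sum of 10 brown adipocyte markers was 10703 to 14077 FPKM in WT, 7513 and 10569 FPKM in Hrd1 KO and 9612 to 10859 FPKM in Sel1L KO, and after scaling 11392 to 15561, 5713 and 9066, and 9205 to 12413 scaled FPKM. That of 6 fibroblast or progenitor markers was 77.1 to 110 FPKM in WT against 156 to 191 FPKM in all 5 knockout libraries, and after scaling 88.8 to 122 against 134 to 185 scaled FPKM. The sum of 8 macrophage markers was 43.7 to 59.7 FPKM in WT, 85.7 and 93.6 FPKM in Hrd1 KO and 94.2 to 189 FPKM in Sel1L KO. After scaling it overlapped between WT, at 46.2 to 68.7, and Hrd1 KO, at 65.2 and 80.3 scaled FPKM, and stood at 90.2 to 217 scaled FPKM in Sel1L KO. The sum of 5 white adipocyte markers was 34.2 to 56.6 FPKM in WT, 125 and 147 FPKM in Hrd1 KO and 40.7 to 87.8 FPKM in Sel1L KO, and after scaling 36.2 to 62.5, 95.4 and 126, and 46.6 to 88.2 scaled FPKM, of which Tcf21 was listed at 0 in every library. The part of these cell types in the members' values was not tested.

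Ratios between members of 1 library do not depend on how libraries are scaled. Lipe per 100 FPKM of Pnpla2 was 23.7, 21.4 and 21.2 in WT, 41.3 and 32.7 in Hrd1 KO, and 24.2, 33.8 and 31.1 in Sel1L KO. All 5 knockout libraries thus had more HSL relative to ATGL transcript than any WT library, as 19.5% of tested genes did relative to Pnpla2. Mgll per 100 FPKM of Lipe was 51.8, 54.7 and 62.2 in WT, 29.1 and 41.9 in Hrd1 KO, and 33.4, 21.1 and 31.3 in Sel1L KO, lower in all 5 knockout libraries, as were 10.6% of tested genes relative to Lipe. Relative to Pnpla2, Mgll was lower than WT in all 3 Sel1L KO libraries, at 7.12 to 9.76 per 100 against 11.7 to 13.2, which 3.88% of tested genes were, but not in Hrd1 KO, at 12.0 and 13.7. Plin1 per 100 FPKM of Cidec was 55.98, 45.48 and 49.98 in WT, 104 and 58.5 in Hrd1 KO, and 67.7, 78.4 and 72.3 in Sel1L KO. This was higher in all 5 knockout libraries, as were 18% of tested genes relative to Cidec. For the LPL pathway, Lmf1 per 100 FPKM of Lpl was 1.37, 1.58 and 1.68 in WT, 2.05 and 2.78 in Hrd1 KO, and 1.5004, 3.64 and 2.86 in Sel1L KO. It was above WT in both Hrd1 KO libraries, but so were 72.5% of tested genes relative to Lpl. Gpihbp1 per 100 FPKM of Lpl was 3.79, 7.66 and 6.97 in WT, 7.55 and 6.21 in Hrd1 KO, and 10.2, 10.6 and 9.99 in Sel1L KO, above WT in all 3 of the latter, as were 31.6% of tested genes.

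**Figure D4:**
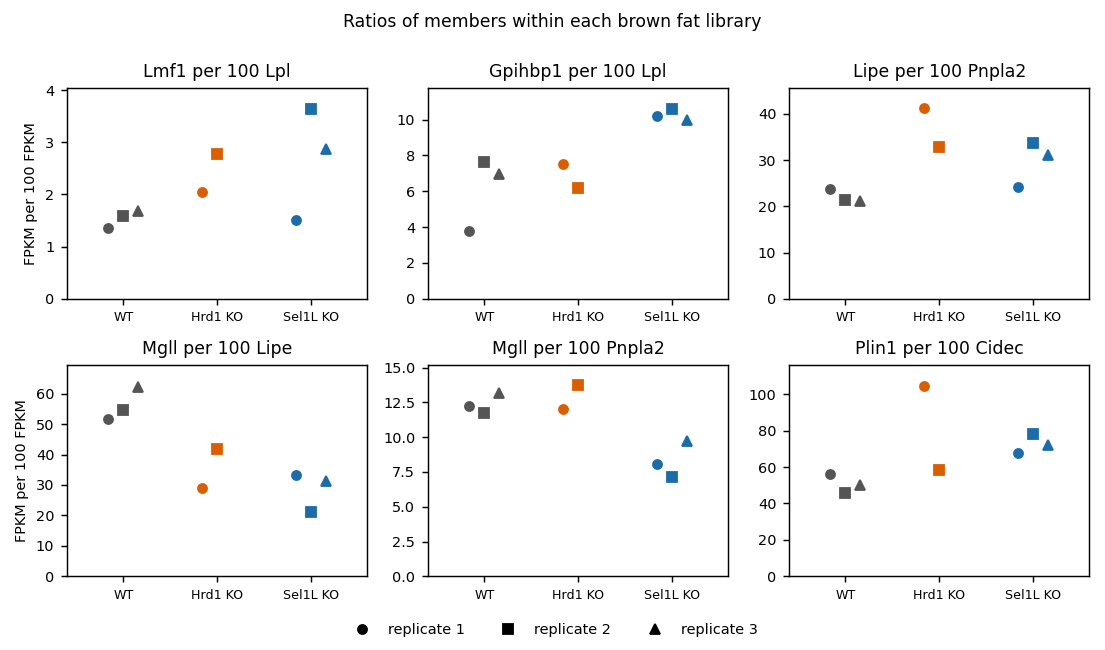
Ratios between members within each BAT library, in FPKM of the first gene per 100 FPKM of the second (linear axes from 0), with 1 point a library and the replicate number as the symbol. Lipe per Pnpla2 and Plin1 per Cidec lie above every WT library in all 5 knockout libraries and Mgll per Lipe lies below, while Mgll per Pnpla2 lies below WT only in Sel1L KO, at 7.12 to 9.76 per 100.

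The genes around the members were read from 7 lists that hold 101 genes, of which 97 were tested. None of them passed an adjusted p of 0.01 against WT on either scale (limma, 0 of 97), so the counts at an unadjusted p under 0.05 are given beside the share of all tested genes. As deposited 17 of the 97 were higher and 10 lower in Hrd1 KO, against 25.4% and 2.02% of tested genes, and 8 higher and 19 lower in Sel1L KO, against 12.7% and 5.08%. After scaling 8 were higher and 33 lower in Hrd1 KO, against 7.36% and 10.8%, and 8 higher and 23 lower in Sel1L KO, against 8.41% and 7.95%. The list of LPL maturation, cofactors and inhibitors had 16 tested genes. Among them Apoc1, which encodes an apolipoprotein that hinders LPL, measured 1950, 2350 and 1893 FPKM in WT, 651 and 1103 FPKM in Hrd1 KO, and 825, 875 and 718 FPKM in Sel1L KO. No knockout library reached the lowest WT one, and the changes were -1.28 log2 (limma adjusted p = 0.0263) and -1.36 log2 (adjusted p = 0.0319) as deposited. Apoe, the apolipoprotein of remnant uptake, overlapped between groups at 1758 to 2669 FPKM in WT, 1746 and 1935 FPKM in Hrd1 KO and 1512 to 2293 FPKM in Sel1L KO. Angptl4 and Angptl8, which encode secreted inhibitors of LPL, were picked for their role after their values had been seen, as was Abhd5 among the regulators of lipolysis. Angptl8 stood at 31.6, 33.1 and 56.7 FPKM in WT, at 195 and 284 FPKM in Hrd1 KO and at 12.8, 149 and 133 FPKM in Sel1L KO, with replicate 1 of Sel1L KO lowest and the other 4 knockout libraries above WT (adjusted p = 0.126 in Hrd1 KO and 0.723 in Sel1L KO). Angptl4 was highest in replicate 1 of Sel1L KO, at 225 FPKM, against 33.1 to 124 FPKM in the other 7 libraries.

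Of the 22 regulators of lipolysis, Gnas and G0s2 had the highest levels. Gnas encodes the G protein subunit that links adrenergic receptors to cAMP. It stood at 1947, 2269 and 2290 FPKM in WT, at 1025 and 1354 FPKM in Hrd1 KO, and at 872, 1274 and 1267 FPKM in Sel1L KO, below WT in all 5, with limma adjusted p of 0.0547 and 0.0654 as deposited. G0s2 encodes an inhibitor of ATGL and ranged over 719 to 1414 FPKM in WT, 1460 and 1935 FPKM in Hrd1 KO and 232 to 1425 FPKM in Sel1L KO. Abhd5, whose product is the co-activator of ATGL, stood at 78.9, 69.0 and 62.8 FPKM in WT, at 38.7 and 48.5 FPKM in Hrd1 KO, and at 84.1, 38.9 and 38.5 FPKM in Sel1L KO, so that again replicate 1 of Sel1L KO was with or above WT and the other 4 below. In fatty acid uptake and activation (13 tested), Fabp3 overlapped between groups and Acsl1, an acyl-CoA synthetase, stood at 559 to 641 FPKM in WT, 407 and 491 FPKM in Hrd1 KO and 498 to 756 FPKM in Sel1L KO. For the other droplet proteins (10 tested), Cidea was at 3279 to 3620 FPKM in WT, 2787 and 4105 FPKM in Hrd1 KO and 2405 to 3359 FPKM in Sel1L KO, and Plin2 was highest in replicate 1 of Sel1L KO, at 1458 FPKM against 236 to 623 FPKM in all other libraries. Of re-esterification (12 tested), Pck1 stood at 1339 to 1872 FPKM in WT, 1072 and 798 FPKM in Hrd1 KO and 860 to 1992 FPKM in Sel1L KO, and Dgat2 overlapped between groups. Of the adipocyte transcription factors (10 tested), Cebpa was above WT in Hrd1 KO, at 271 and 322 against 163 to 245 FPKM. In Sel1L KO it stood at 114, 350 and 331 FPKM, with replicate 1 below the WT range and replicates 2 and 3 above it. Cebpb was at 1113 FPKM in replicate 1 of Sel1L KO and at 380 to 497 FPKM in the other 7 libraries.

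Fatty acid oxidation, which takes up what lipolysis frees, was the one of the 7 lists whose median lay furthest from that of all tested genes. Of its 14 genes, 7 lay below every WT library in Hrd1 KO and 9 in Sel1L KO as deposited, against 5.79% and 8.43% of tested genes, and 13 and 12 after scaling, against 23.7% and 13.9%. Its median change was -0.41 log2 in Hrd1 KO and -0.53 log2 in Sel1L KO as deposited, and -0.86 and -0.63 log2 after scaling. The 10 brown adipocyte markers, none of which is in that list, had medians of -0.48 and -0.27 log2 as deposited and of -0.93 and -0.36 log2 after scaling, and their part in the list's values was not tested. Acadm, the medium-chain acyl-CoA dehydrogenase, stood at 2777, 2781 and 2740 FPKM in WT, at 1575 and 1972 FPKM in Hrd1 KO, and at 1528, 2032 and 2040 FPKM in Sel1L KO (limma adjusted p = 0.0669 and 0.116 as deposited). Etfb, a subunit of the electron transfer flavoprotein, overlapped between groups as deposited, with 2677 to 3234 FPKM in WT, 2408 and 3235 FPKM in Hrd1 KO and 2990 to 3648 FPKM in Sel1L KO. No gene of this list passed an adjusted p of 0.01.

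**Figure D5:**
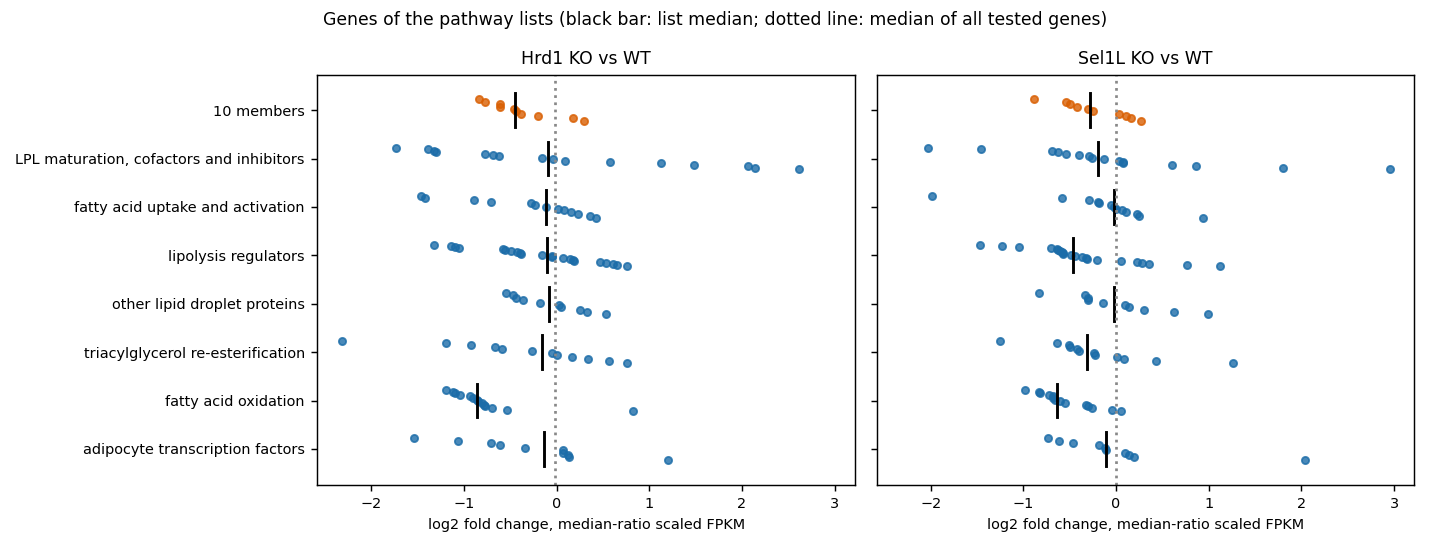
Log2 fold change against WT of each tested gene of the 10 members and of the 7 lists (1 point a gene, median-ratio scaled FPKM), with a black bar at the list's median and a dotted line at the median of all tested genes. The fatty acid oxidation genes lie furthest to the left as a list, with medians of -0.86 in Hrd1 KO and -0.63 in Sel1L KO, against -0.45 and -0.28 for the 10 members.

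The 5 tested genes whose pattern over the 8 BAT libraries lay nearest to that of Lpl, by the root-mean-square difference in log2 deviation from each gene's own mean, were Scarb2 (0.0866), Eva1a (0.0957), Tecpr1 (0.109), Kcmf1 (0.111) and Pnpla8 (0.116). Scarb2, a lysosomal membrane protein, stood at 39.6, 33.4 and 34.0 FPKM in WT, at 30.2 and 32.4 FPKM in Hrd1 KO, and at 34.4, 24.1 and 26.1 FPKM in Sel1L KO, which is the order of the libraries seen for Lpl within each knockout label. Fabp4 was the nearest member, at 0.139. The likeness is over 8 libraries that share depth and scaling and is given as a description.

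The human counterparts of the 10 genes were also listed in the table of HEK293T cells, a human embryonic kidney line that does not store fat as adipocytes do, with 3 libraries each of WT, HRD1 KO and SEL1L KO. That table was normalised on its own and is set beside BAT only as levels. PNPLA2 at 30.6 to 61.1 FPKM and LMF1 at 4.19 to 11.4 FPKM were the 2 above 1 FPKM in all 9 libraries. LPL ranged over 0.22 to 4.53 FPKM, LIPE over 0.47 to 5.10 FPKM and MGLL over 0.39 to 1.57 FPKM. The other 5 did not reach 1 FPKM in any library: PLIN1 at 0.40 to 0.85 FPKM, CD36 at up to 0.34, CIDEC at up to 0.25, FABP4 at up to 0.12 and GPIHBP1, which was listed at 0 in all 9.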

How the data were processed

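The authors extracted RNA from snap-frozen tissue, made poly(A) libraries, sequenced them paired-end on a NovaSeq, mapped the reads with STAR 2.7.8a to GRCm38 (Ensembl) or, for HEK293T cells, GRCh38, and estimated abundance with RSEM 1.3.3; strandedness is not given in the sources used here. They deposited FPKM per gene to 2 decimals, not counts, so the authors' count test could not be repeated. The 10 members and all lists were chosen with earlier results of these data known.

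FPKM, as deposited or divided by median-ratio size factors (from 14042 genes), was analysed as log2(FPKM + 0.1), a scale that understates changes of low genes, with limma 3.58.1 in R 4.3.3. One model with 3 groups, trended empirical Bayes and no block covered the 12473 genes at 1 FPKM or more in at least 2 of 8 BAT libraries, with Benjamini-Hochberg adjustment per comparison and a threshold of 0.01. The fit was tested on data simulated for Hrd1 KO against WT, as deposited. It called 3 of 94 genes given a change of 1 log2 and 37 of 98 given 2 log2. Of the unchanged genes, 2 were called. Levels are means ± SD. Depth is known only relative to the other libraries. All 10 members are named; of each list, genes past the threshold, otherwise the 2 with the highest mean FPKM, and the 5 genes nearest to Lpl. Gene positions come from GENCODE M21 (GRCm38). Alternatives were pseudocount 1, no filter, quantile normalisation, a 2-group fit, a replicate block, threshold 0.05, leaving out each library and, chosen after seeing the data, scaling to the sum outside 37 mitochondrial genes.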

Additional observations from a re-analysis of the deposited data

How the results depend on the processing

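The counts of members called stayed at 0 of 10 in every comparison, on both scales and under every alternative run, and the lowest adjusted p of any member under any of them was 0.0123. Calls were counted at 0.01, and at 0.05 only for the main fits. As deposited, in Hrd1 KO against WT, the 2-group fit gave limma adjusted p of 0.0164 for Lipe and 0.0262 for Plin1. Scaling to the sum outside mitochondrial genes gave 0.0319 for Plin1 in that comparison. The values under 0.05 without replicate 1 of Sel1L KO are given with the members above. Of the 60 log2 changes, 26 changed sign under at least 1 alternative, and the cause was not tested. The pseudocount turned none, and neither did the 2-group fit after scaling. The threshold and the filter leave a log2 change as it is, as does the 2-group fit as deposited, so these could turn none. Median-ratio scaling of the deposited values is such an alternative and turned Lmf1 (-0.20), Pnpla2 (-0.44) and Mgll (-0.39) in Hrd1 KO against WT, and Lpl (-0.30), Pnpla2 (-0.13) and Fabp4 (-0.35) in Hrd1 KO against Sel1L KO. Scaling to the sum outside mitochondrial genes, chosen after seeing the data, gave Hrd1 KO against WT 0.084 for Cidec on both scales, and, against the scaled values, 0.34 for Lmf1, 0.10 for Pnpla2 and 0.16 for Mgll. For Hrd1 KO against Sel1L KO it gave 0.034 for Lmf1 and for Cd36 on both scales, and against the scaled values 0.10 for Lpl, 0.26 for Pnpla2 and 0.047 for Fabp4. Quantile normalisation set against the scaled values gave 0.28 (Pnpla2), 0.13 (Cidec) and 0.10 (Fabp4) for Hrd1 KO, 0.020 (Pnpla2) for Sel1L KO, and 0.085 (Cd36), 0.10 (Lpl), 0.26 (Pnpla2) and 0.33 (Fabp4) for Hrd1 KO against Sel1L KO. Replicate numbers were shared between groups. Deviations from the group mean correlated at r of -0.06 to 0.08 over 7 same-numbered pairs and at -0.09 to 0.06 over 14 others. The deviations of the 2 Hrd1 KO libraries mirror each other by construction, so these values cannot decide whether the numbers pair the mice. A replicate block still called 0 of 10 and turned Lmf1 (0.026), Cd36 (0.057) and Fabp4 (-0.048) in Hrd1 KO against Sel1L KO as deposited. Leaving out each library in turn, the signs that turned were, as deposited, those of Pnpla2 (-0.25 to 0.27), Cidec (-0.44 to 0.42) and Mgll (-0.29 to 0.42) in Hrd1 KO, Lipe (-0.0072 to 0.45) in Sel1L KO, and Lmf1 (-0.25 to 0.23), Cd36 (-0.11 to 0.070), Lpl (-0.077 to 0.25), Pnpla2 (-0.043 to 0.48), Cidec (-0.037 to 0.82) and Fabp4 (-0.17 to 0.18) between the knockouts. After scaling they were those of Lmf1 (-0.53 to 0.14), Cidec (-0.98 to 0.067) and Mgll (-0.83 to 0.067) in Hrd1 KO, Lipe (-0.051 to 0.27), Gpihbp1 (-0.0023 to 0.43) and Plin1 (-0.043 to 0.12) in Sel1L KO, and Pnpla2 (-0.48 to 0.22) and Cidec (-0.48 to 0.56) between the knockouts. In the main fits, at the members' own SEs, a call at 0.01 would have needed a change of about 1.22 log2 or more. Leaving Cldn5 out of the endothelial sum, chosen after seeing the data, moved the mean of Gpihbp1 per 100 FPKM of that sum in Sel1L KO from 41.6 to 64.8, and in WT from 50.5 to 54.0.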

Other observations

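Of 16 tested genes of LPL maturation and 22 of lipolysis, 4 stood above every WT library in all 5 knockout libraries as deposited. Of all tested genes, 15% did so. The 4 were chosen after their values had been seen. Calr, which encodes the ER lectin chaperone calreticulin, stood at 177, 155 and 163 FPKM in WT, at 609 and 648 FPKM in Hrd1 KO, and at 1055, 479 and 464 FPKM in Sel1L KO. Its change was 1.93 log2 (SE 0.33, limma adjusted p = 0.0225) in Hrd1 KO and 1.90 log2 (SE 0.29, adjusted p = 0.0334) in Sel1L KO as deposited, and 1.48 and 1.81 log2 after scaling. Pdia4, an ER disulfide isomerase, stood at 12.5, 13.7 and 11.5 FPKM in WT, at 97.7 and 114 FPKM in Hrd1 KO, and at 464, 52.8 and 46.7 FPKM in Sel1L KO (adjusted p = 0.0731 and 0.102 in limma as deposited). Hilpda, a small droplet protein that inhibits ATGL, stood at 3.75, 4.42 and 5.34 FPKM in WT, at 7.61 and 12.2 FPKM in Hrd1 KO, and at 10.7, 10.3 and 10.5 FPKM in Sel1L KO (adjusted p = 0.0502 and 0.0559). Sdc1, a cell surface heparan sulphate proteoglycan, was low throughout, at 0.60 to 1.11 FPKM in WT, 2.35 and 2.66 FPKM in Hrd1 KO and 1.37 to 1.93 FPKM in Sel1L KO (adjusted p = 0.0558 and 0.201). None of the 4 passed an adjusted p of 0.01.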
